A study of Schizosaccharomyces pombe with 36 samples.

Results

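The comparison is that of wild-type (WT) fission yeast, *Schizosaccharomyces pombe*, after 180 min in 1 M sorbitol with the same strain before the addition (0 min). The members were all libraries whose labels give WT and either time, which are 6 of the 36 libraries of the series, 3 at 0 min and 3 at 180 min. Both groups were grown in yeast extract medium, and their labels name no engineered allele. By the labels, sorbitol and time in culture are what differs between them. Cells kept for 180 min without sorbitol were not analysed here. The other libraries, of WT at 15, 30, 60 and 120 min and of a strain labelled *atf21Δ* at the same times, were used where named. The study addressed how transcripts change during osmotic stress, and 180 min is its last time point.

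Sorbitol, a sugar alcohol, draws water out of cells by making the medium hyperosmotic. In fission yeast the signal runs through the MAP kinase Sty1 to the bZIP factors Atf1 and Pcr1, which bind CRE sites in promoters of stress genes, and the cells make glycerol as an internal osmolyte. The transcript response of this pathway is known to be fast and largely transient, and the genes away from their starting level after it are those described here.

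Levels are RPKM, the uniquely mapped reads per kilobase of feature and scaled to a fixed number of such reads in the library. Changes are log2 differences between group means after the libraries were scaled to each other and 0.5 was added, a scale that shrinks changes of features near 0. The 6 libraries held between 9856099 and 17407399 uniquely mapped reads, and 93.1% to 96.0% of them lay on annotated features. Ribosomal RNA took 37.5% to 51.1% of the reads on features at 0 min and 43.4% to 52.5% at 180 min. Replicate 1 stood apart from replicates 2 and 3 in both groups, with a chi-squared per degree of freedom of 82.3 to 138 in its pairs against 19.8 between replicates 2 and 3 at 0 min and 34.5 at 180 min. In the deposited RPKM the median feature was 0.15 lower in log2 at 180 min, and after scaling the median change was 0.01, so the changes below are relative to that shift.

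Of the 7039 features in the table, 5882 passed the filter on low values and were tested with limma across the WT libraries. At an adjusted p under 0.05, 160 features (2.72% of those tested) were higher and 134 (2.28%) lower at 180 min than at 0 min, or 5% in either direction. The 160 comprised 123 protein-coding genes, 24 tRNAs, 9 ncRNAs and 4 rRNAs. The 134 comprised 118 protein-coding genes, 14 ncRNAs and 2 pseudogenes. The rises were larger than the falls. The median change was 0.94 among features called higher and −0.56 among those called lower, 69 rises and 25 falls passed 2-fold, and the extremes were 3.38 and −2.17. Without the scaling, 72 features were called higher and 183 lower (28.2% of the calls higher), and with quantile normalization 155 and 244 (38.8% higher). Leaving out single libraries lowered the rises to 89 (replicate 2 of 0 min), 97 (replicate 3 of 0 min) and 100 (replicate 2 of 180 min), and the falls to 84 (replicate 1 of 0 min) and 76 (replicate 2 of 0 min). Both counts were also lower with the 6 libraries alone and with adjustment over the 180 min contrast alone, as given at the end. Labels call the replicates biological, and p-values measure the spread between them. After scaling, the 2 groups did not overlap for 1252 of the features tested (21.3%) and for 285 of the 294 called (96.9%). Absence of overlap in a called gene therefore adds little to its call.

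**Figure D1:**
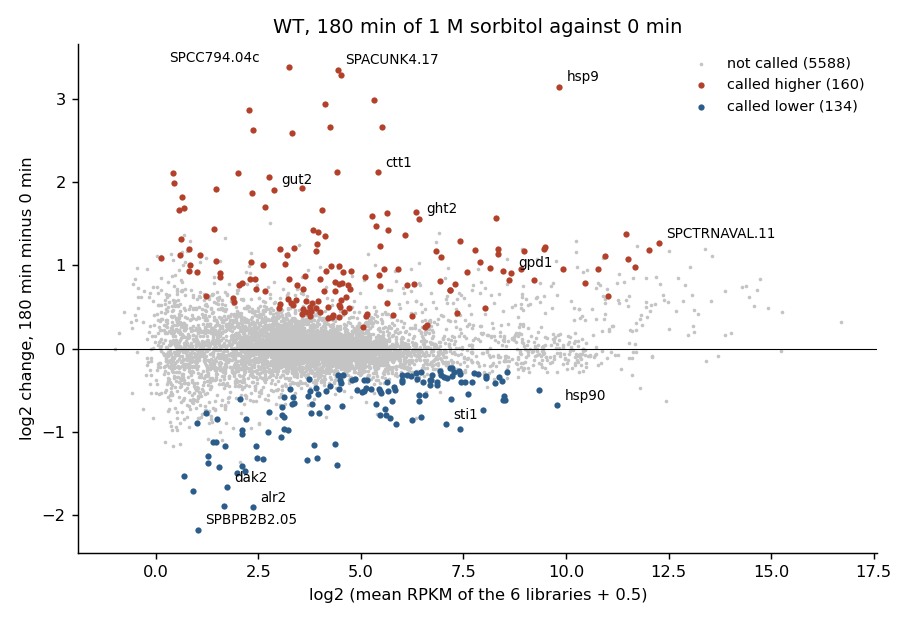
Each point is 1 of 5882 features, with the log2 mean RPKM of the 6 libraries (0.5 added) on the horizontal axis and the log2 change from 0 to 180 min on the vertical axis. The 160 features called higher (red) reach 3.38 and the 134 called lower (blue) reach −2.17, while most features lie near 0.

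The largest rises were mostly in genes of low starting level. *SPCC794.04c*, which RefSeq describes as a transporter, had an RPKM of 0.752, 1.85 and 1.34 in the libraries of 0 min and 15.2, 20.5 and 13.9 in those of 180 min. It rose by 3.38 ± 0.25 (SE, n = 3 against 3, limma adjusted p = 6.7e-08). *SPACUNK4.17*, for an NAD-binding dehydrogenase family protein, went from 2.94, 3.88 and 4.33 to 29.1, 48.8 and 38.1 (3.35 ± 0.33, limma adjusted p = 1.9e-06). For both genes every library of 180 min lay far above every library of 0 min, though the largest rises were chosen among calls without overlap. *hsp9*, a small heat shock protein of the plasma membrane, was the abundant gene of the group. It measured 238, 157 and 194 at 0 min and 1512, 2407 and 984 at 180 min, a rise of 3.15 ± 0.30 (limma adjusted p = 1.1e-06). *SPAC23H3.15c* (*ddr48* in RefSeq) rose from 8.03, 8.41 and 10.1 to 55.7, 112 and 44.3, and *SPBC21C3.19* (*rtc3*) from 12.3, 13.6 and 13.9 to 69.2, 93.8 and 69.8.

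The other 7 of the 12 largest protein-coding rises were *SPAC27D7.09c* (3.28) and *SPAC27D7.11c* (2.67), both of the But2 family, *SPAC15E1.02c* (2.94, uncharacterized), *SPAC139.05* (2.87, succinate-semialdehyde dehydrogenase *ssd2*), *SPBC24C6.09c* (2.63, a phosphoketolase family protein), *lsd90* (2.59) and *SPAC22F8.05* (2.12, an α,α-trehalose-phosphate synthase). Within the 180 min group, replicate 2 was the highest library for 11 of these 12 genes and replicate 3 for the remaining 1. Each of the 12 stayed past the threshold under every alternative run.

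**Figure D2:**
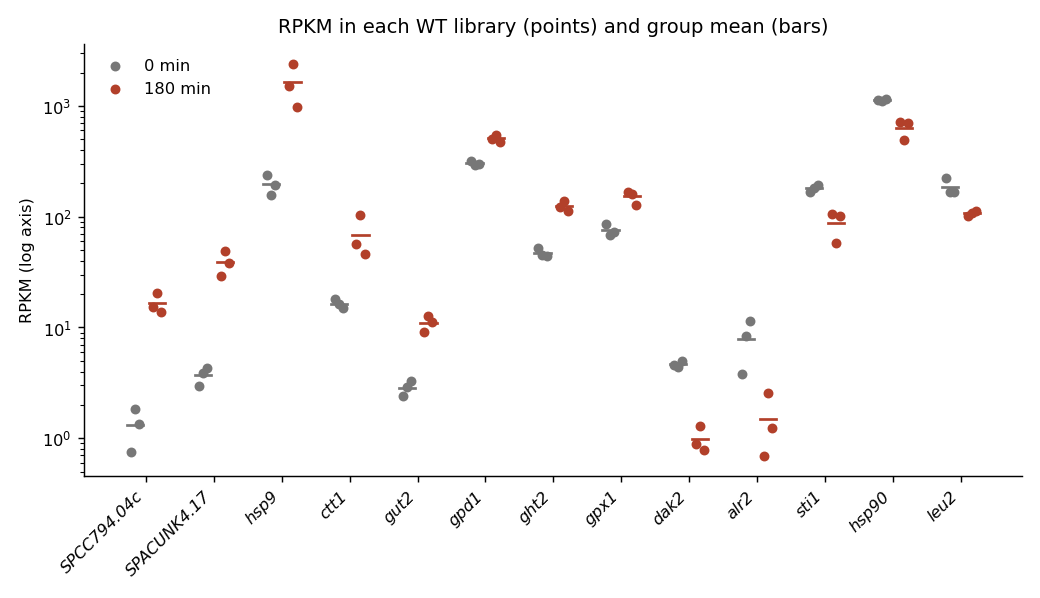
RPKM on a log axis in the 3 libraries of 0 min (grey) and the 3 of 180 min (red) for 13 genes, with bars at the group means. *hsp9* moves from between 157 and 238 to between 984 and 2407, while *hsp90* moves from between 1102 and 1160 to between 496 and 711. The groups do not overlap for any of the 13, and after scaling they do not for 96.9% of all features called.

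Most of these genes were far below the level they had at 30 min. Over the 12, the mean deposited RPKM at 180 min was between 3.35% and 119% of that at 30 min, with a median of 11%. These percentages are without the scaling. In the deposited RPKM the median change from 0 min was −0.38 at 30 min and −0.15 at 180 min. *SPCC794.04c* had a mean of 109 at 30 min, *SPACUNK4.17* of 641 and *SPAC23H3.15c* of 2035, which had been the largest rise of any protein-coding gene at 30 min (8.15). *SPAC27D7.09c* was the gene of the 12 above 100%, with a mean of 34.2, 152, 47.5 and 40.6 at 30, 60, 120 and 180 min. After scaling its log2 change was about the same at both times, 3.30 at 30 min and 3.28 at 180 min. Among the 160 features called higher, the highest mean of the 5 stress times belonged to 30 min in 101 cases, to 60 min in 23, to 15 min in 16, to 120 min in 15 and to 180 min in 5. The falls had another shape. Among the 134 features called lower the lowest mean belonged to 180 min in 43 cases, to 60 min in 37, to 120 min in 35, to 30 min in 16 and to 15 min in 3. The median change of the features called higher was 1.21, 1.92, 1.20 and 0.93 at 15, 30, 60 and 120 min. That of the features called lower was 0.07, −0.26, −0.44 and −0.53 at the same times. All times share the libraries of 0 min.

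**Figure D3:**
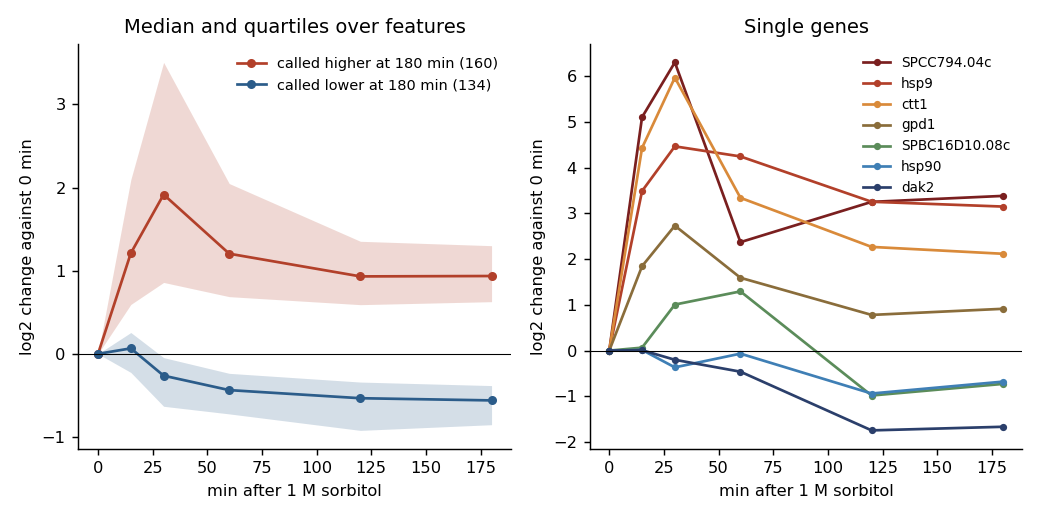
The left panel plots the median log2 change (line) and the quartiles (band) over the features called at 180 min against min after sorbitol, and the right panel the mean log2 change of 7 genes. The median of the 160 features called higher peaks at 1.92 at 30 min and stands at 0.94 at 180 min, while that of the 134 called lower declines to −0.56.

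How far the early response had returned was read from lists chosen in other libraries. In the strain labelled *atf21Δ*, 1157 of the features tested were called higher at 30 min. Their median change in WT was 0.79, 0.27, 0.12 and 0.14 at 30, 60, 120 and 180 min, and over the 3 replicate numbers the last value lay between 0.08 and 0.17. At 180 min 122 of the 1157 (10.5%) were called higher in WT and 14 were called lower, against 2.72% higher and 2.28% lower of all features tested. The 1124 features called lower at 30 min in that strain had median WT changes of −0.61, −0.19, −0.06 and −0.07 at these times. Of the 1124, 42 (3.74%) were called lower in WT at 180 min, not far from the 2.28% of all features tested, and 0 higher. Between 120 and 180 min, limma called 0 of the 5882 features different in WT, with 38 at an unadjusted p under 0.05, and voom called 0. Without replicate 2 at every time 7 were called. If no feature changed, a share of about 0.05 would have an unadjusted p under 0.05, and fewer did. The limma test was thus conservative, and its 0 calls do not show that levels had stopped moving. The number of features called was largest at 30 min, with 633 higher and 678 lower at 15 min, 910 and 774 at 30 min, 447 and 426 at 60 min, 190 and 140 at 120 min, and 160 and 134 at 180 min.

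Glycerol metabolism changed in both directions. Of 6 genes tested, 2 were called higher and 2 lower, with a median change of 0.32 against 0.01 over all features tested. Beside the counts of this and the following lists, 2.72% of all features tested were called higher and 2.28% lower. *gpd1*, the glycerol-3-phosphate dehydrogenase that makes glycerol under osmotic stress, measured 316, 291 and 302 at 0 min and 502, 549 and 473 at 180 min (0.91 ± 0.14, limma adjusted p = 0.00014), with a mean of 1537 at 30 min. *gut2*, the glycerol-3-phosphate dehydrogenase of glycerol use, went from 2.43, 2.89 and 3.26 to 9.04, 12.6 and 11.1 (1.91 ± 0.24, limma adjusted p = 2.7e-05). The groups did not overlap for either gene, and both calls held in each alternative. The paralogue *gpd2* moved the other way, from 70.2, 62.8 and 68.5 to 46.5, 40.3 and 42.5 (−0.47 ± 0.13, limma adjusted p = 0.017). Its adjusted p was 0.071 and 0.058 without replicates 2 and 3 of 0 min. *dak2*, a dihydroxyacetone kinase, fell from 4.54, 4.40 and 5.02 to 0.884, 1.28 and 0.785 (−1.67 ± 0.29, limma adjusted p = 0.00068). It is also among the genes near chromosome ends described below. *gld1*, a glycerol dehydrogenase, measured 1.17 to 1.31 at 0 min and 1.69 to 2.52 at 180 min, which did not pass the test (0.62 ± 0.31, limma adjusted p = 0.21).

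Trehalose is a sugar that protects cells under stress. Of 5 listed genes of its metabolism, 1 was called higher, and the median change was 0.36. The list does not hold *SPAC22F8.05*, the α,α-trehalose-phosphate synthase among the 12 largest rises, which went from 7.5, 8.91 and 8.12 to 31.7, 37.8 and 30.4 (2.12 ± 0.21, limma adjusted p = 2.1e-06). *ntp1*, the neutral trehalase, measured 18.3, 18.9 and 19.1 at 0 min and 24.3, 22.6 and 26.0 at 180 min (0.53 ± 0.12, limma adjusted p = 0.0061), and its call was lost without the scaling. *tps1*, the trehalose-6-phosphate synthase, had 33.8 to 40.5 at 0 min and 42.3 to 44.4 at 180 min after a mean of 219 at 30 min, and did not pass the test (0.41 ± 0.16, limma adjusted p = 0.099).

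Of 19 antioxidant enzymes, 4 were called higher and 0 lower, with a median change of 0.27. *ctt1*, the catalase, measured 18, 16.2 and 14.9 at 0 min and 56.7, 104 and 45.7 at 180 min (2.12 ± 0.33, limma adjusted p = 0.00026). *gpx1*, the glutathione peroxidase, went from 85.7, 68.7 and 72.4 to 168, 161 and 128 (1.18 ± 0.17, limma adjusted p = 9.9e-05). The glutathione S-transferase *gst3* rose by 0.83 ± 0.18 and the glyoxalase *glo1* by 0.40 ± 0.13. The groups did not overlap for *ctt1*, *gpx1* and *gst3*. The deposited RPKM of *glo1* overlapped between the groups (56.3, 42.3 and 51.3 against 62.9, 65.3 and 48.2), and its adjusted p rose from 0.049 to between 0.088 and 0.21 without any 1 of 5 libraries, namely replicates 1, 2 and 3 of 0 min and replicates 1 and 2 of 180 min. *gst2* shows how 1 library can carry a mean. It measured 22.2, 15.1 and 22.1 at 0 min and 23.3, 108 and 22.6 at 180 min, with replicate 2 of 180 min far above the other libraries, and was not called (1.13 ± 0.45, limma adjusted p = 0.10).

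CRE sites were looked for in the 300 bases before the annotated gene start in RefSeq (assembly ASM294v3), as the letters TGACGT on either strand. The window held them in 41 of the 123 protein-coding genes called higher (33.3%), in 6 of 116 called lower (5.17%) and in 295 of all 4852 tested genes with a window (6.08%). Of the 12 largest rises 1 had such a match, *SPAC15E1.02c*. *gpd1* had 2 matches, of which 1 is shown. Stretches with the match in capitals are given for 6 of the 10 named genes called higher that hold one, on the strand of the gene, 5′ to 3′. They are the glycerol, trehalose, antioxidant and hexose transport genes among the 10.
gut2, chrIII:1843277-1843366, minus strand: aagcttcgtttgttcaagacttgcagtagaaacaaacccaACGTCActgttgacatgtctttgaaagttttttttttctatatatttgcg
gpd1, chrII:4035452-4035541, plus strand: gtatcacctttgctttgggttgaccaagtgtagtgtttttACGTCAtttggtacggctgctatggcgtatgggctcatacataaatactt
ctt1, chrIII:58843-58932, minus strand: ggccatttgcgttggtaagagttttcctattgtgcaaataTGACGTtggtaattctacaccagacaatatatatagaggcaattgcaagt
gst3, chrI:3116897-3116986, minus strand: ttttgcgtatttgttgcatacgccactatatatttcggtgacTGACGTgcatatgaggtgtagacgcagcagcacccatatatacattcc
ntp1, chrII:206472-206561, plus strand: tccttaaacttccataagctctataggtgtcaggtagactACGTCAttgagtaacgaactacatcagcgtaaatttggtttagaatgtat
ght2, chrII:3426987-3427076, plus strand: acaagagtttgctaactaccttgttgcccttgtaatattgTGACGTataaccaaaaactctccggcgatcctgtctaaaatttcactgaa

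Most genes of the pathway itself were not called. Of 18 genes of the Sty1 pathway 2 were called higher and 0 lower, where 2.72% of all features tested were called higher. The median change of the 18 was 0.10. *pyp1*, the tyrosine phosphatase that acts on Sty1, rose from 6.08, 8.87 and 11.2 to 15.3, 22.3 and 25.6 (1.40 ± 0.30, limma adjusted p = 0.0040). *mpr1*, a phosphotransfer protein of the upstream relay, rose by 0.45 ± 0.11, with an adjusted p of 0.067 without replicate 3 of 0 min and 0.051 without replicate 3 of 180 min. None of 6 bZIP factors was called. *atf1* measured 6.19, 8.88 and 10.1 at 0 min and 9.02, 11.6 and 13.8 at 180 min, which overlap (0.60 ± 0.29, limma adjusted p = 0.21). *pcr1* changed by 0.74 ± 0.30 (limma adjusted p = 0.12). *atf21* had 0.108, 0.0457 and 0.125 at 0 min, between 27.8 and 29.2 at 30 min and 0.643, 0.311 and 0.245 at 180 min, the last from 20, 12 and 6 reads (0.62 ± 0.21, limma adjusted p = 0.063).

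Of 27 chaperones and chaperone regulators tested, 7 were called lower and 1, *hsp9*, higher. The other 19 did not pass the test, 6 of the 27 changes were above 0, and the median was −0.19. The 7 include *hsp90* and its cofactors *sti1*, *wos2* (p23) and *SPBC1711.08* (*aha1* in RefSeq), the disaggregase *SPBC16D10.08c* (*hsp104*) and the mitochondrial chaperonin *mcp60* with *hsp10*. *hsp90* measured 1135, 1102 and 1160 at 0 min and 711, 496 and 701 at 180 min (−0.68 ± 0.15, limma adjusted p = 0.0043). *sti1* went from 168, 183 and 192 to 107, 57.7 and 101 (−0.90 ± 0.21, limma adjusted p = 0.0062). *wos2* went from 368, 289 and 332 to 211, 148 and 169 (−0.74 ± 0.12, limma adjusted p = 0.00047). *mcp60* fell by 0.62, *hsp10* by 0.57 and *SPBC1711.08* by 0.56 on the log2 scale. In each of these 6 genes the 3 libraries of 180 min lay below all of 0 min.

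The timing differed within the group. *SPBC16D10.08c* was above its starting level early, by 1.01 at 30 min, and below it at 180 min (54.3, 61.0 and 70.4 against 40.4, 26.0 and 33.6, −0.73 ± 0.17, limma adjusted p = 0.0075). *hsp90* was near its starting level at 60 min, with a mean of 1081, and lower at 120 min, with 566. The small heat shock gene *hsp16* had a mean of 216 at 60 min, and at 180 min its libraries (61.9, 42.1 and 18.4) overlapped those of 0 min (44.0, 35.2 and 22.2). Without any single library the count of chaperones lower stayed at 7 or 8. It was 3 without replicate 2 at every time, 1 with the spread taken from the 6 libraries alone, and 11 without the filter on low values.

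The heat shock element was searched in the same window of 300 bases as GAANNTTC, which reads the same on both strands. It was present in 4 of the 7 chaperones called lower and in 546 of the 4852 tested genes (11.3%). Among all protein-coding genes with a window it was in 15 of 116 called lower (12.9%) and 16 of 123 called higher (13.0%). The chaperones that were not called were not counted for it. The 4 stretches are shown for the position of the match, in capitals.
hsp90, chrI:3891147-3891236, minus strand: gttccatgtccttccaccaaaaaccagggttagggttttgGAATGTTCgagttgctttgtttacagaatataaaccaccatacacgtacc
sti1, chrIII:1263619-1263708, minus strand: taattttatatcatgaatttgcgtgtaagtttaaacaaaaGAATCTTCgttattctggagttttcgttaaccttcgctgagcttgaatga
hsp10, chrIII:1195850-1195939, minus strand: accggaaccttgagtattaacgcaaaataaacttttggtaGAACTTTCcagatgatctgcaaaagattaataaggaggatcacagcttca
SPBC1711.08, chrII:2148935-2149024, plus strand: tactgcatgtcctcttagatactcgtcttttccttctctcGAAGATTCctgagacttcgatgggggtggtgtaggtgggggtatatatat

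Of 59 genes of amino acid and nucleotide synthesis, 14 were called lower and 0 higher, and 10 of the 59 changes were above 0, with a median of −0.22. *leu2*, the isopropylmalate dehydratase of leucine synthesis, measured 222, 168 and 167 at 0 min and 101, 107 and 112 at 180 min (−0.61 ± 0.10, limma adjusted p = 0.00026). *leu1*, which catalyses the next step, went from 276, 218 and 237 to 155, 151 and 136 (−0.55 ± 0.08, limma adjusted p = 0.00018). For both, the groups were well apart. The histidine genes *his2* and *his4* changed by −0.56 and −0.50. The count of 14 was sensitive to single libraries. It was 6, 8 and 9 without replicates 1, 2 and 3 of 0 min and 8 without replicate 3 of 180 min. It was 3, 4 and 3 without replicate 1, 2 or 3 at every time, and 2 with the 6 libraries alone, and the adjusted p of *his4* was 0.050 without replicate 1 of 0 min. Without the scaling 20 were called lower, with quantile normalization 26, and in 1 fit of all 36 libraries 23. *car2*, the ornithine transaminase of arginine breakdown, was the most abundant of the genes lower after *hsp90* (812, 742 and 841 against 460, 568 and 483, −0.50 ± 0.14, limma adjusted p = 0.025), and lost its call without replicates 2 or 3 of 0 min or replicates 1 or 3 of 180 min (adjusted p 0.068 to 0.11).

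The protein synthesis machinery was near its starting level. Of 138 cytosolic ribosomal proteins 0 were called in either direction, with a median change of −0.05 and a range of −0.28 to 0.39. *rps801*, the most abundant of them, measured 3214, 2295 and 2492 at 0 min and 2684, 2178 and 1883 at 180 min. Of 60 genes in the ribosome biogenesis list, which had a median of −0.92 at 30 min and 0.00 at 180 min, 1 was called lower. It is *drs1*, which RefSeq gives as an aspartyl-tRNA ligase and not a biogenesis factor, so 0 of the other 59 were called. The change of *drs1* was −0.41 ± 0.10, and its adjusted p was 0.053 without replicate 2 of 0 min and 0.051 without replicate 1 of 180 min. Of 28 proteasome subunits 0 were called (median −0.04), against a median of 0.45 at 30 min. Autophagy genes had a median of 0.88 at 30 min and 0.05 at 180 min, with 0 of 17 called.

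**Figure D4:**
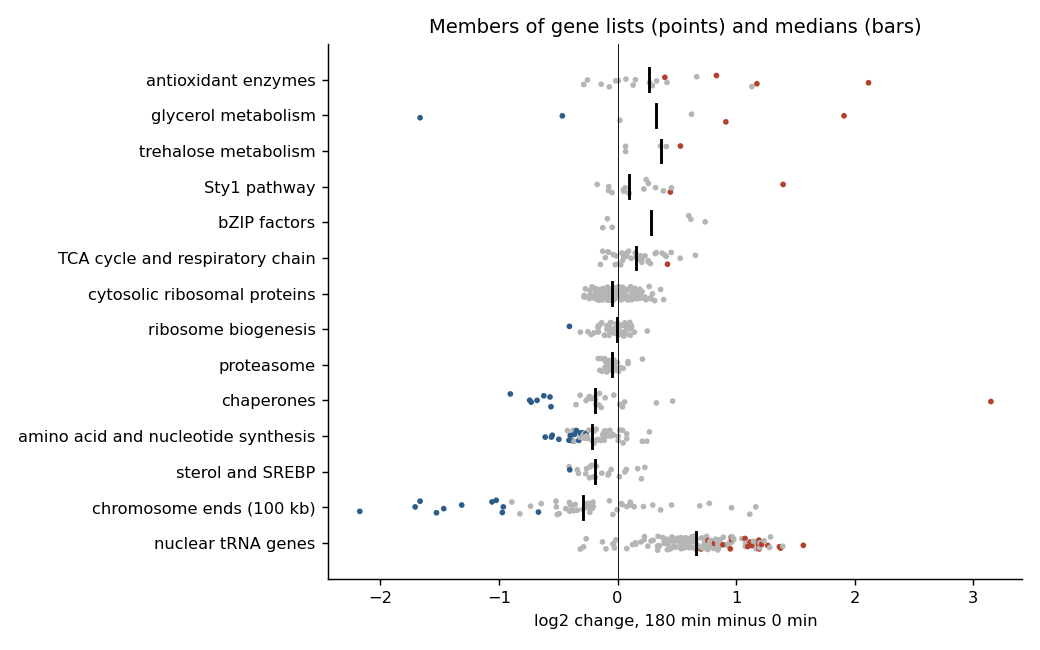
Log2 change from 0 to 180 min of the tested members of 14 gene lists, 1 point per gene (red called higher, blue called lower, grey not called), with a bar at the median of each list. Chaperones (median −0.19), amino acid and nucleotide synthesis (−0.22) and chromosome ends (−0.29) lie to the left of 0, nuclear tRNA genes (0.67) to the right, and ribosomal proteins (−0.05) at 0.

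Genes of carbon uptake and energy changed singly. *ght2*, a hexose transporter, went from 52.3, 44.9 and 43.8 to 123, 138 and 111 (1.56 ± 0.13, limma adjusted p = 2.0e-07), with no overlap, and 4 other hexose transporters tested were not called. *gpd3*, a glyceraldehyde-3-phosphate dehydrogenase, rose by 0.78 ± 0.18, the only call among 16 glycolytic and fermentation genes, and *pka1*, the catalytic subunit of protein kinase A, by 0.55 ± 0.12, the only call among 13 genes of glucose and cAMP signalling. Of 39 genes of the TCA cycle and respiratory chain, *cox12* was called (0.42 ± 0.10), and 31 changes were above 0 (median 0.15). The calls of *gpd3*, *pka1* and *cox12* were lost without the scaling. Of 8 protein-coding mitochondrial genes tested 0 were called, and all 8 changes were below 0, between −0.36 and −0.04.

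Nitrogen metabolism held 2 calls higher and 1 lower among 18 genes. *gdh2*, the NAD-dependent glutamate dehydrogenase, went from 5.04, 6.65 and 5.71 to 10.1, 11.1 and 11.5 (1.02 ± 0.26, limma adjusted p = 0.014, or 0.067 without replicate 1 of 0 min). *gdh1*, the NADP-dependent enzyme, changed by 0.49 ± 0.14, and its libraries overlapped (248, 206 and 240 against 293, 356 and 229). The adjusted p of *gdh1* rose from 0.027 to between 0.060 and 0.13 without replicate 1, 2 or 3 of 0 min or replicate 2 of 180 min. In sterol synthesis *erg6*, the sterol methyltransferase, fell by 0.40 (229, 184 and 206 against 144, 127 and 143), 1 of 23 genes.

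Among cell wall and cell cycle genes, 1 of 18 in glucan synthesis, 0 of 11 in cell separation, 2 of 19 in the MBF and S phase list and 1 of 16 cell cycle kinases and cyclins were called higher, and 0 lower. *chs2*, a chitin synthase-like gene, went from 8.4, 8.01 and 8.2 to 13.3, 13.2 and 11.7 (0.76 ± 0.15, limma adjusted p = 0.0019), where at 30 min it had been 0.25 below its start. *ctp1*, a DNA repair nuclease cofactor of the MBF list, rose by 0.48 ± 0.12. The cyclin *cig2* changed by 0.49 ± 0.14, with adjusted p values of 0.098, 0.059 and 0.098 without replicates 1 and 2 of 0 min and replicate 2 of 180 min, and the kinase *cdr1* by 0.42 ± 0.14, whose libraries overlapped. The adjusted p of *cdr1* was 0.048, and between 0.079 and 0.18 without replicate 1, 2 or 3 of 0 min or replicate 1 or 2 of 180 min. Both *cig2* and *cdr1* lost their call without the scaling, as did *ctp1*. *rsv2*, a transcription factor of the meiotic list, measured 1.29, 1.88 and 1.98 against 2.55, 3.83 and 3.18 (0.87 ± 0.26, limma adjusted p = 0.031), with adjusted p of 0.0525 to 0.139 without replicates 1 or 3 of 0 min or 2 or 3 of 180 min.

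Of 106 *mug* and *meu* genes tested, named for upregulation in meiosis, 4 were called higher and 1 lower, with a median change of 0.04. Over all protein-coding genes tested the shares were 2.52% higher and 2.42% lower, so the genes below are single cases. *mug190* (*tcb2*, a tricalbin) went from 5.76, 5.38 and 5.99 to 11, 12.8 and 11.1 (1.12 ± 0.17, limma adjusted p = 0.00020) and *mug2* from 3.41, 2.95 and 2.60 to 7.37, 5.80 and 4.84 (1.04 ± 0.22, limma adjusted p = 0.0036). *mug161*, a splicing factor, rose by 0.58 ± 0.13, a call lost without the scaling, and *mug147* by 0.91 ± 0.28 with overlapping libraries. The call of *mug147* was lost, at adjusted p 0.11 to 0.17, without replicates 1 or 2 of 0 min or replicates 2 or 3 of 180 min.

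Genes of metal and vitamin uptake fell in single cases. *ctr5*, a copper transporter subunit, measured 72.3, 53.0 and 33.6 against 31.0, 27.3 and 26.3 (−0.67 ± 0.20, limma adjusted p = 0.031), and 0.0524 to 0.151 without replicates 1 or 2 of 0 min or any 1 library of 180 min. *bsu1*, a vitamin B6 carrier, had 6.16, 4.98 and 5.71 against 2.57, 2.62 and 2.47 (−0.84 ± 0.27, limma adjusted p = 0.044, and 0.071 to 0.11 without any 1 of the 6 libraries). Of 14 iron uptake and storage genes 0 were called, although *fio1*, the multicopper oxidase of iron uptake, had a change of −0.83 ± 0.43 with overlapping libraries. *urg3*, induced by uracil, fell by 0.48 (18.4, 17.0 and 17.8 against 11.9, 10.8 and 10.9).

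Several of the largest falls were of genes near chromosome ends. Of 128 protein-coding genes within 100 kb of the ends of chromosomes I and II in the coordinates of the table, 55 were tested, and 11 of these were called lower and 0 higher, with a median of −0.29. Of these, 2 lay at the left end of chromosome I, *dak2* of the glycerol list among them. Another 1 lay at its right end, and 4 at each end of chromosome II. *SPBPB2B2.05*, for a glutamine amidotransferase family protein, measured 2.29, 1.76 and 4.63 at 0 min and 0.651, 0 and 0 at 180 min (−2.17 ± 0.44, limma adjusted p = 0.0024). *SPBPB10D8.01*, a cysteine transporter, went from 27.3, 18.9 and 19.8 to 6.79, 8.01 and 7.63 (−1.31 ± 0.23, limma adjusted p = 0.00061), and its neighbour *SPBPB10D8.02c* from 13.2, 8.06 and 12.1 to 4.90, 3.71 and 4.64. These counts rest on low levels in part, as *SPBPB2B2.01* fell by 1.53 from 1.32, 1.44 and 3.09. The count lower was 7 without replicate 3 of 0 min, 3 and 4 without replicates 2 and 3 at every time, and 6 with the 6 libraries alone. Without replicate 3 of 0 min the adjusted p of *SPBPB2B2.01* was 0.083, that of *aes1* (−1.47) 0.061. *SPBC1348.13* (−1.71) had 0.061 without replicate 3 of 180 min. In the same regions *eno102* measured 0.381 to 0.531 at 0 min and 0.546, 1.54 and 3.00 at 180 min and was not called (1.17 ± 0.51, limma adjusted p = 0.15). Many genes there have near copies, and since reads with several loci were discarded, the values count unique sequence alone.

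Other large falls lay elsewhere. *alr2*, an alanine racemase, measured 3.78, 8.31 and 11.4 against 0.685, 2.56 and 1.23 (−1.90 ± 0.53, limma adjusted p = 0.021), and lost its call without replicates 2 or 3 of 0 min or replicates 1 or 3 of 180 min (adjusted p 0.053 to 0.10). *SPCC1672.03c* (*gud1*, a guanine deaminase) went from 36.8, 24.4 and 25.6 to 13.6, 10.5 and 9.67 (−1.15 ± 0.13, limma adjusted p = 1.0e-05), and *SPAC5H10.10*, an NADPH dehydrogenase, from 22.2, 18.1 and 19.8 to 8.62, 7.33 and 7.23. *SPAC11D3.04c* (−1.40), *SPBC1685.17* (−1.34) and *SPBC1271.07c* (−1.43, an N-acetyltransferase) complete the 12 largest. *SPBC8D2.18c*, adenosylhomocysteinase, is among the most abundant genes lower (488, 418 and 396 against 330, 310 and 307), with a change of −0.28 ± 0.09 and a limma adjusted p of 0.049 that was 0.068 to 0.20 without replicate 1 or 2 of 0 min or any 1 library of 180 min.

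Among non-coding features, nuclear tRNA genes mostly had changes above 0. Of 149 tested, 140 changes were above 0, with a median of 0.67, and 22 were called higher and 0 lower. *SPCTRNAVAL.11* measured 4286, 2910 and 2092 at 0 min and 9850, 6033 and 4296 at 180 min (1.27 ± 0.39, limma adjusted p = 0.036). Mitochondrial tRNA genes had 2 calls in 25, with a median of 0.42. Replicate 1 was the highest library of its group for *SPCTRNAVAL.11* at both times, and likewise for *SPMITTRNALEU.01* (3490, 1609 and 1929 against 6822, 2506 and 3437), whose groups overlapped. The count of nuclear tRNA calls moved with single libraries and with the scaling. It was 26 without replicate 1 of 0 min, 0 without replicate 2 of 0 min, 2 without replicate 3 of 0 min, 1 without replicate 1 of 180 min and 0 without the scaling, while the list's median over the omissions of 1 library lay between 0.48 and 0.86. For *SPCTRNAVAL.11* the adjusted p was 0.074 to 0.16 without replicates 2 or 3 of 0 min or 1 or 2 of 180 min, and for *SPMITTRNALEU.01* 0.063 to 0.22 without replicates 2 or 3 of 0 min or 1 or 3 of 180 min. The share of reads on tRNA was 4.01%, 2.15% and 2.15% at 0 min and 5.26%, 3.35% and 2.84% at 180 min. Of 38 rRNA features, left after ribosomal reduction of the RNA, 4 were called higher. The count was 1 without replicate 2 of 0 min or replicate 1 of 180 min, 2 without replicate 3 of 0 min or replicate 2 of 180 min, and 8 without replicate 1 of 0 min. The part of the rRNA share in the tRNA change was not tested.

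Of 752 ncRNAs tested, 9 (1.20%) were called higher and 14 (1.86%) lower. *SPNCRNA.1696* measured 4.46, 4.88 and 4.26 at 0 min and 1.16, 0.449 and 0.709 at 180 min (−1.89 ± 0.33, limma adjusted p = 0.00072). The other large falls were *SPNCRNA.1307* (−1.49), *SPNCRNA.863* (−1.41), *SPNCRNA.813* (−1.37) and *SPNCRNA.782* (−1.33). *SPNCRNA.1165* rose from 0.379, 0.0804 and 0.220 to 1.07, 0.819 and 0.933 (1.09 ± 0.23, limma adjusted p = 0.0040) after a mean of 17.3 at 30 min. Its reads were 8, 1 and 4 at 0 min and 19, 18 and 13 at 180 min. *SPNCRNA.1164*, which spans it on the other strand, had 0.416 to 0.665 against 0.778 to 0.953 and was not called (0.45 ± 0.23, limma adjusted p = 0.23). Among the rises, *SPNCRNA.198* rests on 0 reads in each library of 0 min and 1, 3 and 1 reads at 180 min, at or below the limit of 3 reads per library, so it is given no fold. It lost its call without any 1 of the 6 libraries (adjusted p 0.056 to 0.15). *SPNCRNA.184* (1.67) rests on 3, 0 and 1 reads against 12, 13 and 3, and its adjusted p was 0.058 to 0.094 without replicates 2 or 3 of 0 min or 1 or 2 of 180 min. *SPNCRNA.1523* (1.13) and *SPNCRNA.1280* (1.13) were also called, the latter with adjusted p of 0.056 and 0.062 without replicate 2 of 0 min and of 180 min.

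The libraries were strand-specific, so ncRNAs could be set against the gene on the other strand. There were 22 tested ncRNAs opposite a protein-coding gene called higher, and 18 of their changes were below 0 (median −0.30, against −0.07 over all 752 ncRNAs), with 3 called lower and 1 higher. Of 20 opposite a gene called lower, 11 changes were below 0 (median −0.02), with 2 called lower and 0 higher. This grouping was made after the values were seen, and 2 of the 22 ncRNAs lie opposite 1 gene. Any overlap was counted, down to 1 base for *SPNCRNA.881* among the 20. The 2 that fell with the gene opposite include *SPNCRNA.1307* (−1.49), of which 100% lies opposite *SPBPB10D8.02c* (−1.06). *SPNCRNA.857*, of which 70.5% lies opposite *SPACUNK4.17*, went from 8.89, 6.63 and 6.56 to 2.83, 2.49 and 2.50 (−1.17 ± 0.25, limma adjusted p = 0.0040) as *SPACUNK4.17* rose by 3.35. *SPNCRNA.1351*, opposite *mug2*, fell by 0.82 (12.7, 7.87 and 12.9 against 5.42, 4.99 and 5.35), and *SPNCRNA.1668*, opposite *mug147*, by 1.12. Their adjusted p was 0.050 for *SPNCRNA.1351* without replicate 3 of 0 min, and 0.086, 0.10 and 0.12 for *SPNCRNA.1668* without replicates 1 and 2 of 0 min and 2 of 180 min. *SPNCRNA.1115*, of which only 11.9% lies opposite *SPCC320.03*, which rose, was higher too (0.77). Without replicates 2 or 3 of 0 min or replicate 2 of 180 min the adjusted p of *SPNCRNA.1115* was 0.070 to 0.14.

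The 180 min changes were then looked up in 6 libraries of the strain labelled *atf21Δ* that the calls did not use. *atf21* in those libraries reached 15.4, 17.8 and 30.4 RPKM at 30 min, against 27.8 to 29.2 in WT over a feature of 2220 bases, so its label is given as the submitters state it. Of the 160 features called higher in WT, 156 (97.5%) changed in the same direction in the strain labelled *atf21Δ*, where their median was 0.68, against 0.94 in WT, and 106 were called. Of the 134 called lower, 133 (99.3%) had the same direction, with a median of −0.42 against −0.56, and 84 were called. Over all 5882 features 71.9% had the same direction, and 512 of them were called in that strain, in either direction. The features were chosen by their WT values, and the part of that choice in the difference between the medians was not tested. The strain-by-time term at 180 min called 0 of the 5882 features, with 82 at an unadjusted p under 0.05, and voom called 0. Those 82 are also fewer than a share of 0.05 of the features, so the test was conservative. Its 0 calls do not show that the strains responded alike. In that strain *hsp9* rose by 3.03, *ctt1* by 1.82 and *SPCC794.04c* by 3.22.

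**Figure D5:**
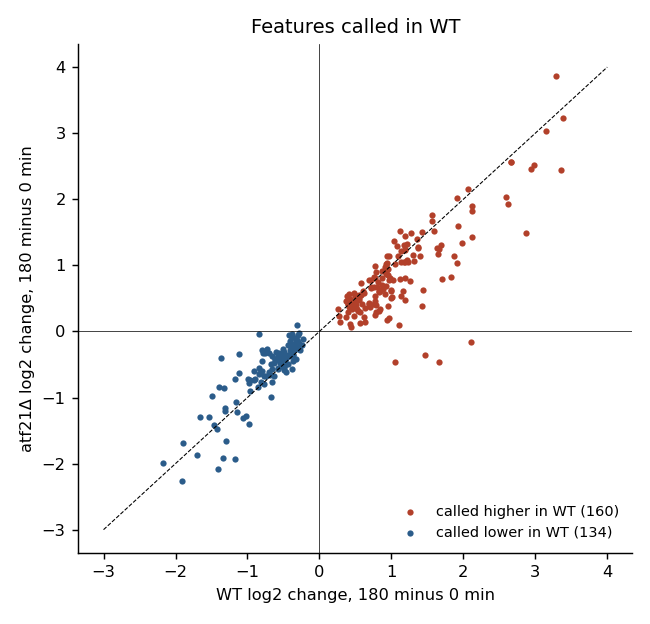
Log2 change from 0 to 180 min in WT (horizontal) against the strain labelled *atf21Δ* (vertical) for the features called in WT, with the line of equality dashed. Of 160 called higher (red) 156 lie above 0 on the vertical axis, and of 134 called lower (blue) 133 lie below it.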

How the data were processed

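Strand-specific total RNA of fission yeast, depleted of ribosomal RNA, was sequenced by the authors on a SOLiD instrument. Reads were aligned by the authors with SHRiMP2, default settings, against PomBase release 11, and those with more than 1 locus were dropped. As deposited, each value is an RPKM of 1 feature in 1 library, so replicates were not pooled. Reads per feature were recovered from RPKM, feature length and library total, and 100% of 253404 values came out whole within 0.01 reads. The reads carry no molecular identifiers.

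Scaling factors were trimmed means of log ratios without weights, with trims of 0.3 for ratios and 0.05 for levels, and log2 was taken after adding 0.5. A feature entered the test if over 6 of all 36 libraries reached an RPKM of 1, which left 5882, tested with limma 3.58.1 (R 4.3.3), with time as a factor over the 18 WT libraries and a mean-variance trend. Benjamini-Hochberg adjustment ran over features and 5 times together, with a threshold of 0.05. The strain-by-time term was fitted over all 36 libraries. The procedure was tested on simulated data.

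The features named are the 12 largest protein-coding rises and falls and the 5 largest of ncRNAs among calls without overlap of the groups, up to 4 called members of each gene list or, where none was called, its most abundant member, the 5 largest 30 min rises, the 5 most abundant calls, and *atf21*, *atf1*, *pcr1*, *SPNCRNA.1164* and *SPNCRNA.1165*. The members and lists were chosen with earlier results of these data known. Chosen after their values were seen were *hsp16*, *gld1*, *tps1*, *gst2*, *mcp60*, *hsp10*, *SPBC1711.08*, *SPBPB10D8.02c*, *eno102*, the tRNAs and the antisense ncRNAs of the pairs. List members were matched by symbol, and 6842 of 7039 features matched RefSeq by systematic ID (ASM294v3), whose names, gene starts and sequence were used without the coordinates of the table. The alternatives changed the pseudocount (0.1 or 1), the scaling (none or quantile), the filter, the trend, the libraries fitted or the test (voom on recovered reads), added the replicate number, or omitted libraries. The 6 libraries with replicate number as a factor were added after seeing the data.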

Additional observations from a re-analysis of the deposited data

Results flagged for a closer look

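*SPNCRNA.184* moved in opposite directions in the 2 strains at 180 min. Its change was 1.67 in WT (RPKM 0.493, 0 and 0.191 against 2.35, 2.05 and 0.747) and −0.46 in the strain labelled *atf21Δ* (means of 1.66 and 0.908). The strain-by-time term differed by 2.13 ± 0.58 (SE), with an unadjusted limma p of 0.00096 and an adjusted p of 1, so it did not pass the correction over all features. The WT change rests on between 0 and 13 reads per library.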

How the results depend on the processing

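Of 85 named features called, 27 stayed past the threshold under all 21 alternatives, and none reversed. Without scaling, 72 features were called higher, and the median at 180 min of the features lower at 30 min in the strain labelled *atf21Δ* was −0.23. With quantile normalization 244 were called lower, and that median was −0.12. With the 6 libraries alone, 54 were called higher and 38 lower, and with adjustment over the 180 min contrast alone 73 and 66. Leaving out a replicate number at every time gave 57 to 89 higher, 29 to 63 lower, 0 to 7 between 120 and 180 min, and a median of 0.15 to 0.22 for the features higher at 30 min. Leaving out 1 library gave 89 to 139 higher and 76 to 104 lower. The run with adjustment over the 180 min contrast alone used the same libraries, fit and p-values, and only the adjustment differed. The omissions and the fit of the 6 libraries alone rest on fewer samples, and the cause of their moves was not tested further.

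Same-numbered libraries of 0 and 180 min had deviations correlated at 0.49, 0.02 and 0.33. Not every pair passed 0.1, so the numbers were not taken as pairs. Over all 45 same-numbered WT pairs the median was 0.145, with 27 over 0.1, and replicate 2 of 0 min correlated better with replicate 3 of 180 min (0.23). With the replicate block 229 features were called higher and 172 lower, with 37 nuclear tRNA genes and 14 rRNA features higher. With the block in the 6 libraries alone, chosen after seeing the data, the counts were 233 and 113, with 78 nuclear tRNA genes and 16 rRNA features higher.

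Genes not called changed sign as follows. *pts1* was −0.082 without scaling, and −0.099 to 0.205 over the omissions. Over the omissions *hsp16* lay between −0.016 and 0.812, *pma1* between −0.094 and 0.386, *SPBC660.16* between −0.257 and 0.060, *rps801* between −0.174 and 0.045, *pek1* between −0.226 and 0.041, and *hhf1* between −0.211 and 0.0026.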
